A study of Homo sapiens with 22 samples.

Results

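In control THP-1 cells, 45 protein-coding genes were densely covered by QKI5 CLIP. Dense, here and below, refers to the number of listed peaks and not to the share of a gene that they cover. Off the H3K4me3 peaks, which mark active promoters, they held 568 of the 7337 peaks in the control CLIP list (7.74%), with AHNAK, CBFA2T3 and PLEC in front. The genes were selected on these CLIP values. A gene qualified with 8 or more control CLIP peaks under its Ensembl identifier and a protein-coding biotype in RefSeq, and its peaks were kept where they did not touch a control H3K4me3 peak. In all, 46 genes met the count and held 608 peaks, of which 40 (6.58%) lay on H3K4me3 and 568 off it. Over all protein-coding genes, 5317 of 6114 control CLIP peaks lay off H3K4me3, so peaks on it were a larger share there. The 46th gene, BOD1L1, had all 9 of its peaks on H3K4me3, within chr4:13627628-13627721, and so contributed none. The number of CLIP peaks, their reads and their enrichment over background chose the genes, or come from the same list, and are given as description with no test. Pol II binding, the knockdown lists and chromosome position were not used in the choice.

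THP-1 is a human monocytic leukaemia line. The cells had been infected with a lentivirus carrying a short hairpin against QKI5 (sh-QKI5, the knockdown) or an sh-control hairpin (the control), as the sample labels give it, while the text on the design names the control cells untreated. All groups share the line and, by those labels, a lentiviral infection. Whether the line carried the hairpins as a pool or as 1 clone is not given in the sources used here. Each list used here, for QKI5 CLIP, H3K4me3 ChIP and Pol II ChIP in control and in knockdown, combines 2 samples into 1 set of peaks, so no value has a spread between replicates and the depth of each sample is unknown. The peak lists do not measure RNA levels, so the strength of the knockdown was not checked here. As a check of the cell type, 8 of the 10 monocyte markers with a listed start carried a control H3K4me3 peak there, including CD14, CD33 and CSF1R, against 1 of 5 markers of other blood cells, CD8A, whose start held no Pol II peak.

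QKI is a STAR-family RNA-binding protein that recognises ACUAA-type elements in RNA, and QKI5 is its nuclear isoform, known for work on splicing of precursor RNA. In CLIP, ultraviolet light links a protein to the RNA it touches, the complexes are isolated with an antibody, and the bound RNA fragments are sequenced. The number of CLIP peaks in a gene depends on how many places of its RNA are bound and on how much of that RNA there is, and a peak list cannot tell these apart. In monocytes QKI is known for a part in their maturation into macrophages.

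The starts of 3 of these genes are shown because ChIP peaks bear on them: AHNAK, with the most CLIP peaks, ANKRD11, with both marks and 2 knockdown CLIP peaks, and MFGE8, whose start had a Pol II peak in the knockdown list only. Each line gives the 250 bases before the transcription start, from RefSeq (GRCh38.p14), minus strand, written 5′ to 3′ with capitals marking CG pairs. The windows are chr11:62545827-62546076 for AHNAK, chr15:88913380-88913629 for MFGE8 and chr16:89490562-89490811 for ANKRD11.
AHNAK: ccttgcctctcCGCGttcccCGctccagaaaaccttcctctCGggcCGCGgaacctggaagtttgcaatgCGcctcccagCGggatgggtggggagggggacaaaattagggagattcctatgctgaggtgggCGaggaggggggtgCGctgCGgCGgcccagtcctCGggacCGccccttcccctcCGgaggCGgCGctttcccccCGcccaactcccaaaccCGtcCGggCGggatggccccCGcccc
MFGE8: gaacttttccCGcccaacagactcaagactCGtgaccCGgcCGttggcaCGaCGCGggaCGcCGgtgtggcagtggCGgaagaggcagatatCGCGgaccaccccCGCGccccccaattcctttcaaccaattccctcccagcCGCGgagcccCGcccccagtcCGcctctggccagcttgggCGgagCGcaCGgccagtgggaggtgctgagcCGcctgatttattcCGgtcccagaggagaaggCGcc
ANKRD11: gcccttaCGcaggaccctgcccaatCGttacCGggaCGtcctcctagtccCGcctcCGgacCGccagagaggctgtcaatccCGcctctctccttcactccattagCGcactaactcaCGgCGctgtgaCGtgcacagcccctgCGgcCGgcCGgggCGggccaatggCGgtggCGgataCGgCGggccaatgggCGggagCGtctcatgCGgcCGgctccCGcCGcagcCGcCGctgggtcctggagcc

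AHNAK held 22 CG pairs in this window, MFGE8 24 and ANKRD11 28, where the median over 35116 promoter windows of the same length was 11. At least 22 CG pairs occurred in 28.0% of all windows, and at least 28 in 15.9%. The DNA letters of the QKI element, searched as ACTAAC or ACTAAT on both strands, occurred once in the ANKRD11 window, 141 bases before the start, and in neither of the others. Of the 66 windows of the densely bound genes, 6 (9.09%) held it, against 8.74% of all windows. A match is a description of the letters in this window only.

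The peaks were unevenly spread over the 45 genes. AHNAK had 53, CBFA2T3 34, PLEC 30, TRAPPC9 26, C7orf50 24 (CHLSN in RefSeq), ANKRD11 23 and SMYD3 21, and these 7 genes held 211 peaks, 37.1% of the total. A further 17 genes had 10 to 19 peaks, 16 had 8 or 9, and 5 had fewer than 8 left once peaks on H3K4me3 were removed. In 33 genes no peak lay on H3K4me3, a count not made here for genes with fewer peaks. At the other extreme were IRS2, the insulin receptor adaptor, with 4 of 8 peaks off H3K4me3, and ONECUT2, a transcription factor, with 1 of 8.

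**Figure D1:**
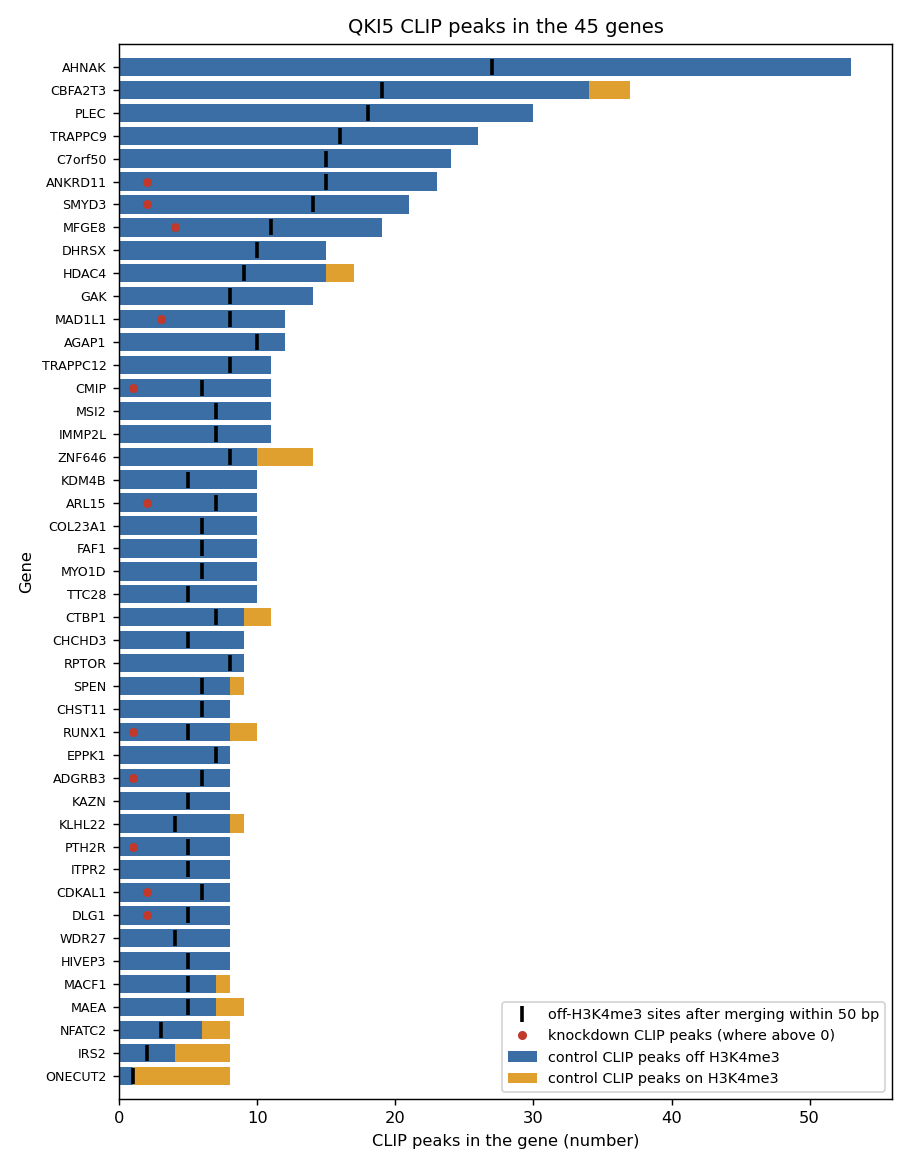
Bars give the number of control CLIP peaks in each of the 45 genes, off H3K4me3 in blue and on it in orange, with a black tick at the number of off-H3K4me3 sites after merging peaks within 50 bp and a red dot at the number of knockdown CLIP peaks. AHNAK leads with 53 peaks, which merge into 27 sites, and 11 genes carry a red dot.

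Many of these peaks touch one another. No 2 of the 568 overlapped, but 345 (60.7%) lay in a run of directly adjoining peaks. Of the 183 adjoining pairs, 64 (35.0%) had equal reads and equal enrichment. The share of adjoining peaks was 61.6% among the 4749 off-H3K4me3 peaks of 2398 protein-coding genes with 1 to 7 peaks, the comparison used throughout. There, 931 of 1491 adjoining pairs (62.4%) had equal reads and equal enrichment, a larger share. Merging peaks within 50 bp left 356 sites, and 16 genes had 8 or more of them. These were AHNAK with 27, CBFA2T3 with 19, PLEC with 18, TRAPPC9 with 16, C7orf50 and ANKRD11 with 15 each, SMYD3 with 14, MFGE8 with 11, DHRSX and AGAP1 with 10 each, HDAC4 with 9, and GAK, MAD1L1, TRAPPC12, ZNF646 and RPTOR with 8 each. A peak number in the text below counts the deposited entries unless sites are named.

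AHNAK had the most peaks, and 3 other cytoskeletal linker genes, PLEC, EPPK1 and MACF1, were among the 45. AHNAK encodes a giant scaffold protein under the plasma membrane. Its 53 peaks lay within 19.991 kb of chromosome 11 (chr11:62516019-62536009, GRCh38.p5, minus strand), 26.5 peaks per 10 kb of that span, and covered 11.8% of it. The median gap between neighbours was 60.5 bp and the largest 2237 bp. Its peaks held 12 to 41 reads with a median of 23, the highest median of the 45 genes. PLEC, which encodes plectin, a linker of intermediate filaments, had 30 peaks within 23.629 kb of chromosome 8 with 11 to 39 reads and a median of 18.5. EPPK1, encoding epiplakin, a relative of plectin, lies next to PLEC on the same strand and had 8 peaks of 8 to 15 reads. MACF1, a linker of microtubules and actin that is also a known QKI splicing target, had 7 peaks off H3K4me3 over 118.135 kb, with 8 to 18 reads. Over all 20056 RefSeq protein-coding genes, 2795 (13.9%) had a control CLIP peak and 46 had 8 or more, 0.229% of all and 1.65% of those with a peak. Of 17 genes listed as giant cytoskeletal linkers, 11 (64.7%) had a control CLIP peak, and these 4 with 8 or more made up 36.4% of the 11. The gene lists counted here and below were drawn up with earlier results of these data known, so their counts are description only. AHNAK, PLEC and EPPK1 contain long internal repeats, and how reads that match several places were treated is not given in the sources used here.

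Chromatin regulators and corepressors formed another group. CBFA2T3, an ETO-family corepressor that is fused to another gene in some acute leukaemias, had 34 peaks over 79.972 kb (chr16:88888734-88968705), with 9 to 37 reads and a median of 14. ANKRD11, a chromatin regulator, had 23 peaks over 159.5 kb (chr16:89276325-89435824), with 8 to 39 reads and a median of 13. SMYD3, a SET-domain methyltransferase, had 21 peaks spread over 594.06 kb of chromosome 1, with 7 to 18 reads. HDAC4, a class IIa histone deacetylase, had 15 peaks of 7 to 9 reads over 313.892 kb. KDM4B, a histone demethylase, had 10 peaks and CTBP1, a corepressor, 9. Of 39 genes in the corepressor and chromatin list, 28 (71.8%, against 13.9% over all genes) had a control CLIP peak, and 6 of the 28 (21.4%, against 1.65%) had 8 or more. Relatives of these genes in the list were sparser: CBFA2T2 had 1 peak, HDAC5 had 2, HDAC9 had 3 and CTBP2 had 6.

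MFGE8 was the most compact gene for its number of peaks. It encodes lactadherin, a secreted protein that tethers dying cells to phagocytes. Its 19 peaks lay within 6.333 kb (chr15:88898934-88905266, minus strand), 30.002 peaks per 10 kb, the highest value of the 44 genes with more than 1 peak. They held 12 to 36 reads with a median of 16. The peak with most reads, 36, had an enrichment of 3.01 (log2) over background, equal to the lowest of the 568 peaks. The most enriched, 5.92, held 16 reads, so the order by reads was not the order by enrichment. ZNF646, a zinc finger gene, was similarly compact, with 10 peaks of 9 to 15 reads within 4.545 kb of chromosome 16.

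The vesicle-transport and signalling genes ranged from compact to widely spread. TRAPPC9, a subunit of a trafficking complex of the Golgi, had 26 peaks over 444.015 kb with 7 to 14 reads and a median of 8. TRAPPC12, another subunit of the TRAPP family, had 11 peaks within 57.322 kb with a median of 12 reads. AGAP1, a GTPase-activating protein for Arf, had 12 peaks over 592.027 kb. MAD1L1, a spindle checkpoint protein, had 12 and RPTOR, the raptor subunit of mTOR complex 1, had 9. These 5 were the densely bound genes among 35 listed GTPase regulators, kinases and adaptors. Of the 35, 21 (60%, against 13.9% over all genes) had a control CLIP peak, so the 5 were 23.8% of those with a peak, against 1.65%. The list was drawn up with earlier results known. It holds MAD1L1 but not the kinase gene GAK, so these shares are description only and show no enrichment. GAK, a kinase of clathrin uncoating, had 14 peaks within 54.422 kb and DHRSX 15 within 178.505 kb. DHRSX lies in the pseudoautosomal region, which X and Y share, and its peaks are listed on X.

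Of the 37 blood cell transcription factors listed, 12 (32.4%, against 13.9% over all genes) had a control CLIP peak. RUNX1, a master regulator of blood formation, was the densely bound one, 8.33% of those 12 against 1.65%, with 10 peaks, 8 of them off H3K4me3 and holding 7 to 14 reads. FOXP1 followed with 7. Among 20 known QKI RNA targets, 7 (35%) had a control CLIP peak and MACF1 had 8, while QKI itself had 1 peak of 9 reads. Of the 14 monocyte markers, 3 (21.4%) had a control CLIP peak and none was densely bound. MPO, a granule enzyme gene, had 4 peaks of 34 to 58 reads. None of the 12 markers of other blood cells had a control CLIP peak.

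Across the 45 genes, the stretch from the first to the last peak had a median of 164.0 kb, under 100 kb in 15 genes and over 200 kb in 18. Peaks per 10 kb of that stretch ran from 0.156 in CDKAL1, a tRNA-modifying enzyme gene, to 30.002 in MFGE8. The peaks covered little of it, with a median of 0.330% over the 45 genes. Among genes with more than 1 peak, coverage ran from 0.080% in CDKAL1 to 14.4% in MFGE8. The remaining genes with 10 or 11 peaks were MSI2, CMIP, IMMP2L, ARL15, COL23A1, FAF1, MYO1D and TTC28. Their stretches ran from 101.664 kb in MSI2, an RNA-binding protein gene, to 604.444 kb in TTC28, whose 10 peaks merged into 5 sites. In all, 59 of the 568 peaks (10.4%) also lay inside another gene of the RefSeq table. Examples are 8 peaks of C7orf50 inside GPER1 and 5 of DHRSX inside ZBED1. The same share was not counted for the comparison peaks, so it marks no trait particular to these genes.

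**Figure D2:**
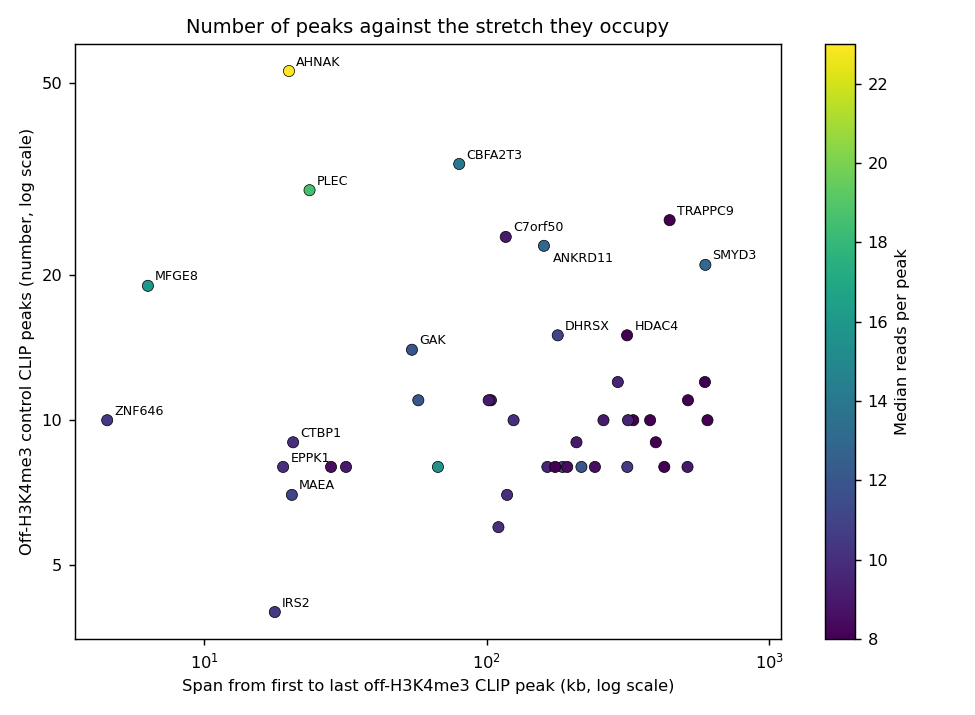
Each point is 1 of the 44 genes with more than 1 peak, placed by the span of its peaks (kb, log scale) and their number (log scale) and coloured by the median reads per peak. MFGE8 and ZNF646 sit at the left with spans of 6.333 and 4.545 kb, TRAPPC9 and SMYD3 at the right with 444.015 and 594.06 kb.

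Peaks with many reads sat mostly in 5 genes. The 568 peaks had a median of 10 reads, with quartiles of 8 and 14 and a range of 7 to 41, while the comparison peaks had a median of 8, quartiles of 8 and 10 and a range of 3 to 249. At least 20 reads were found in 76 peaks (13.4%), and 70 of these were in AHNAK, CBFA2T3, PLEC, ANKRD11 and MFGE8, against 61 comparison peaks (1.28%). The 10 peaks with most reads, 36 to 41, all belonged to those 5 genes. At the low end, 7 to 10 reads were found in 51.6% of the peaks and in 79.4% of the comparison peaks. Counting adjoining peaks with equal values once left 504 peaks with a median of 11 reads and 3818 comparison peaks with a median of 9.

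**Figure D3:**
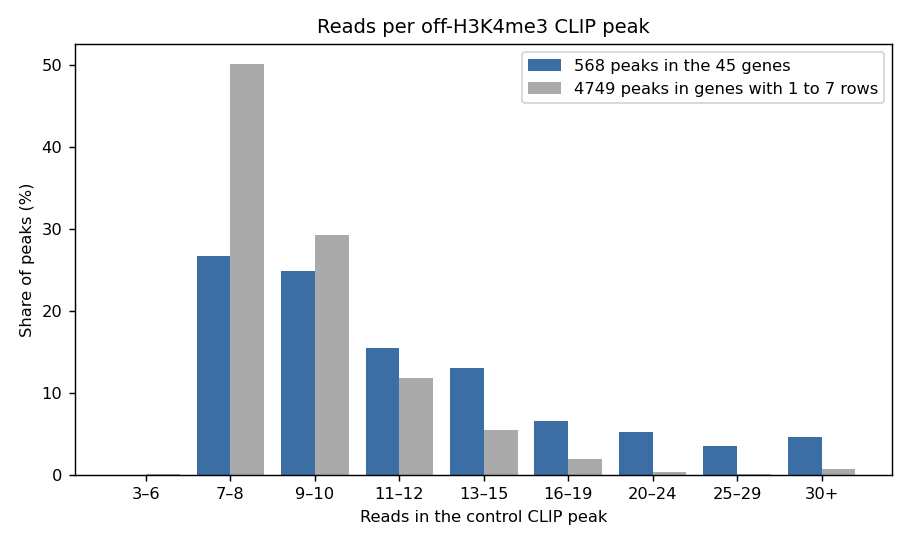
Bars give the share of peaks (%) by the number of reads in the peak, blue for the 568 peaks of the 45 genes and grey for the 4749 comparison peaks. Of the grey peaks, 50.1% hold 7 or 8 reads, where 26.8% of the blue ones do, and 4.58% of the blue and 0.758% of the grey peaks hold 30 or more.

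Enrichment was lower, with a median log2 value of 5.06 for the 568 peaks and 5.92 for the comparison peaks. In both sets the lowest deposited −log10 p was 7.00323. The lowest log2 enrichment was 3.01 in the 568 peaks and 3.02 in the comparison, and AHNAK, PLEC and MFGE8 each had a lowest value of 3.01. A peak of few reads can reach that −log10 p only with a high enrichment, so a set with fewer reads per peak tends to a higher median. The difference is therefore description only, and the part of these lower limits in it was not tested. The deposited values fit an enrichment equal to 15.18 times the reads divided by a whole number of background reads, within 0.01 for 98.9% of the control peaks, an arithmetic inferred from the values that no source states. By it the densely bound genes had a median of 5 background reads per peak and the comparison 2, and the share of peaks with 1 background read was 21.0% against 41.3%. In AHNAK the median was 29 background reads beside a log2 enrichment of 3.70, in PLEC 21.5 beside 3.72, and in MFGE8 16 beside 4.05. In TRAPPC9 the median was 1 background read beside an enrichment of 6.73, values that 6 other genes shared (ARL15, TTC28, ITPR2, DLG1, HIVEP3 and MAEA), and NFATC2 had 1 beside 6.92. Among the 568 peaks, 1 was the lowest inferred background and 7 the fewest reads, and a peak with both has an enrichment of 6.73. The shared values therefore lie at the lower limits of reads and background and mark no trait common to these genes. In AHNAK, PLEC and MFGE8 many reads per peak went with a high background and a low enrichment. The part of background in the number of peaks was not tested.

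**Figure D4:**
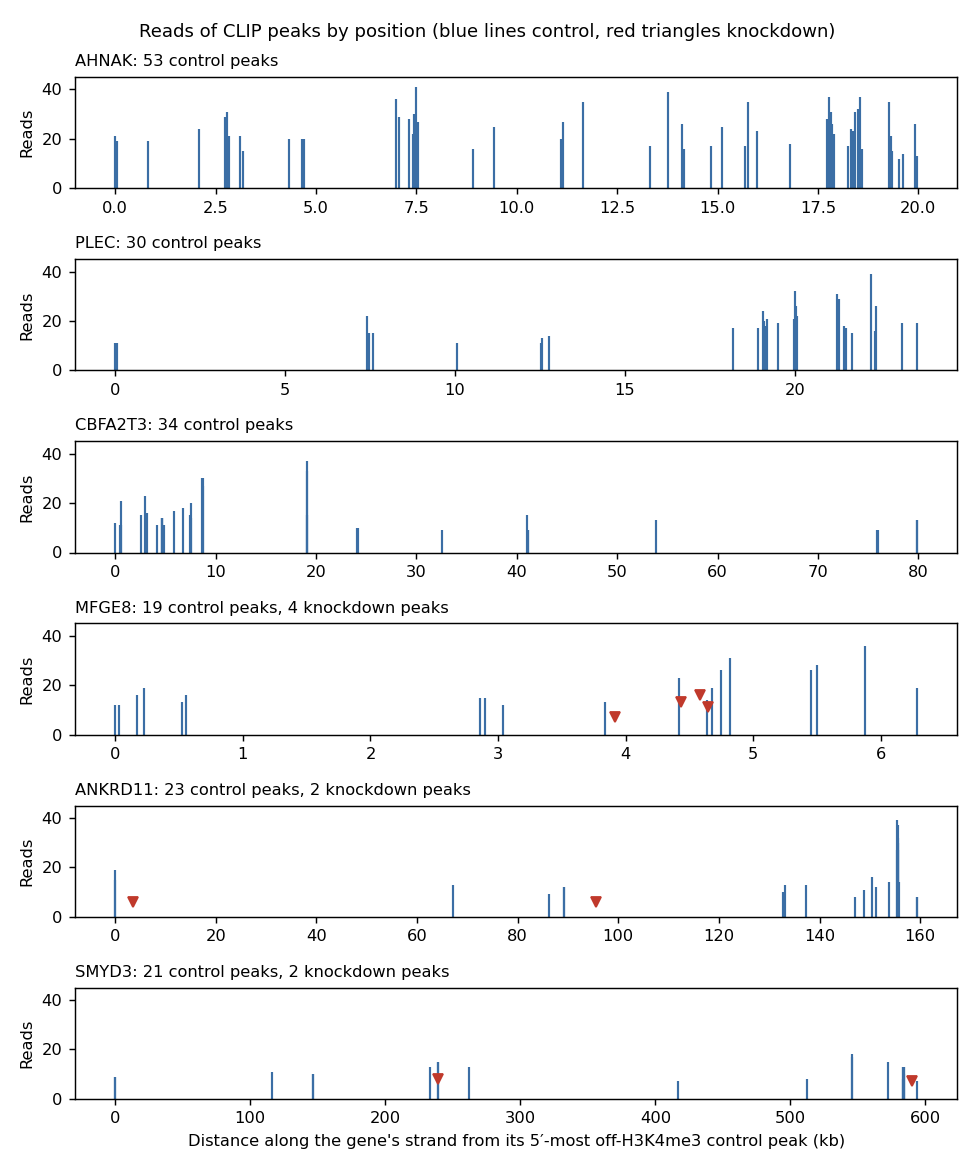
Vertical lines give the reads of each off-H3K4me3 control CLIP peak along 6 genes, by distance (kb) from the 5′-most peak in the direction of transcription, and red triangles give knockdown CLIP peaks. AHNAK has peaks along all of its 19.991 kb, the peaks of CBFA2T3 crowd into the first part of its span and those of PLEC and ANKRD11 into the last part.

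Pol II was rarely listed at the CLIP peaks of these genes. Of the 568 peaks, 19 (3.35%, exact 95% interval 2.03 to 5.17) touched a control Pol II peak, against 248 of 4749 (5.22%, 4.61 to 5.89) in the comparison and 5.02% of both together. The difference was −1.88 percentage points with a Newcombe interval of −3.25 to 0.039, which includes 0. Without ZNF646, where 5 of 10 peaks lay on 1 Pol II peak, the share was 2.51% and the difference −2.71 (−3.92 to −0.951), and without AHNAK it was −2.12 (−3.48 to −0.143). It was −4.72 (−7.01 to −1.69) among peaks of 10 or more reads and −4.63 (−6.85 to −1.96) with peaks on H3K4me3 kept in, so that whether the interval includes 0 depends on the set of peaks. With the knockdown Pol II list it was 21 of 568 (3.70%) against 246 (5.18%), and 5.02% of both together. These intervals cover counting error only, and peaks of 1 gene are not independent.

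The overlaps came from 8 genes, and 37 genes had none. ZNF646 had 5 of 10 peaks on a control Pol II peak of 4392 bp, and SPEN, a nuclear corepressor, had 3 of 8 on Pol II peaks of 765 and 2540 bp. In the knockdown list both regions were again listed, with 3 Pol II peaks under 5 peaks of ZNF646 and 2 under 5 peaks of SPEN. COL23A1, a transmembrane collagen gene, had 2 of 10 peaks in a single Pol II stretch of 13937 bp, RUNX1 1 of 8 in one of 7304 bp, and ANKRD11 2 of 23. No CLIP peak of COL23A1 or RUNX1 lay on a knockdown Pol II peak, although both spans held such peaks. COL23A1 had 13 control and 28 knockdown Pol II peaks in the span of its CLIP peaks, covering 15.8% and 19.5% of it. RUNX1 had 19 in each list, covering 35.0% and 26.0%. IRS2 had 2 of 4 and HDAC4 1 of 15 on Pol II peaks of 501 bp. AHNAK had 3 of 53 peaks on control Pol II and 6 on knockdown Pol II, at different sites. CBFA2T3, PLEC, TRAPPC9, C7orf50 and SMYD3 had none on control Pol II, although SMYD3 had 11 Pol II peaks elsewhere in the span of its CLIP peaks.

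H3K4me3 and Pol II were each found at a start of most of the genes with a listed start, as in the comparison genes. RefSeq listed a start for 40 of the 45 genes, and 38 (95%, 83.1 to 99.4) had a control H3K4me3 peak on a start, against 90.5% of 2009 comparison genes and 68.9% of all 15843 protein-coding genes with a listed start. The number was also 38 in knockdown. The 2 without were CBFA2T3, whose nearest control H3K4me3 peak was 4636 bp from the listed start, and PTH2R, a hormone receptor gene, with 137361 bp. Pol II lay on a start in 34 genes (85.0%, 70.2 to 94.3) in control and in 37 (92.5%, 79.6 to 98.4) in knockdown, against 82.5% and 84.5% of the comparison genes.

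The genes with Pol II on a listed start in the knockdown list only were MFGE8, ADGRB3 and TTC28. At MFGE8 the knockdown peak was 766 bp wide (chr15:88912901-88913666) and covered the start shown above, and the nearest control Pol II peak lay 273779 bp away. Its H3K4me3 peak was 2386 bp wide in control and 2528 bp in knockdown. At ADGRB3, an adhesion receptor gene, the knockdown Pol II peak was 1282 bp wide and the nearest control peak lay 592214 bp away. At TTC28 a control Pol II peak lay 253 bp from the start, so there the lists differ in the edge of a peak. MACF1 had Pol II on 1 of its 3 listed starts in both lists, and on another in the knockdown list only, where a control peak lay 305 bp away. AHNAK and ANKRD11 had both marks at the start in both conditions, with H3K4me3 widths of 7645 and 8131 bp at AHNAK and 5874 and 5478 bp at ANKRD11 in control and knockdown. A peak listed in 1 condition shows which list it passed the threshold in, and the signal below threshold was not analysed here.

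After knockdown few CLIP peaks were listed in these genes. The knockdown CLIP list held 669 peaks, and 21 of them were in 11 of the 45 genes (24.4%, 12.9 to 39.5), where 166 of 2398 comparison genes (6.92%) had one and 7.25% of both together. The difference was 17.5 percentage points (7.26 to 31.8), and by number of control peaks the share was 5.95% for genes with 1, 13.03% for those with 4 or 5 and 28.6% for those with 12 or more. MFGE8 had 4 knockdown peaks, MAD1L1 3, ANKRD11, SMYD3, ARL15, CDKAL1 and DLG1 2 each, and CMIP, ADGRB3, PTH2R and RUNX1 1 each. AHNAK, CBFA2T3, PLEC, TRAPPC9 and C7orf50, the 5 genes with most control peaks, had none. Control peaks per knockdown peak were 28.5 in the 45 genes, 21.1 in genes with 1 to 7 control peaks and 10.97 over the whole lists, a comparison that the choice by control peaks affects.

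The knockdown peaks mostly lay at other places. Only 6 of the 568 control peaks (1.06%, 0.389 to 2.28) touched a knockdown peak on the same strand, against 43 comparison peaks (0.905%) and 0.922% of both together. The difference of 0.15 points had an interval of −0.50 to 1.40. Of the 21 knockdown peaks, 5 touched a control peak of these genes, 13 lay over 1 kb from any and 10 over 10 kb. The same counts are not given here for knockdown peaks in other genes, so they mark no trait particular to these genes. MFGE8 gave 3 of the 6 control peaks, which held 14, 19 and 23 reads and met knockdown peaks of 11 and 13 reads. SMYD3 gave 2 adjoining peaks of 15 reads each, met by a knockdown peak of 8 reads at chr1:246143113-246143181. ARL15, a small GTPase gene, gave 1 peak of 21 reads, met by 2 adjoining knockdown peaks of 16 reads at chr5:54079919-54080027. Read numbers of the 2 lists are not scaled to each other, so no change in binding is read from them.

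**Figure D5:**
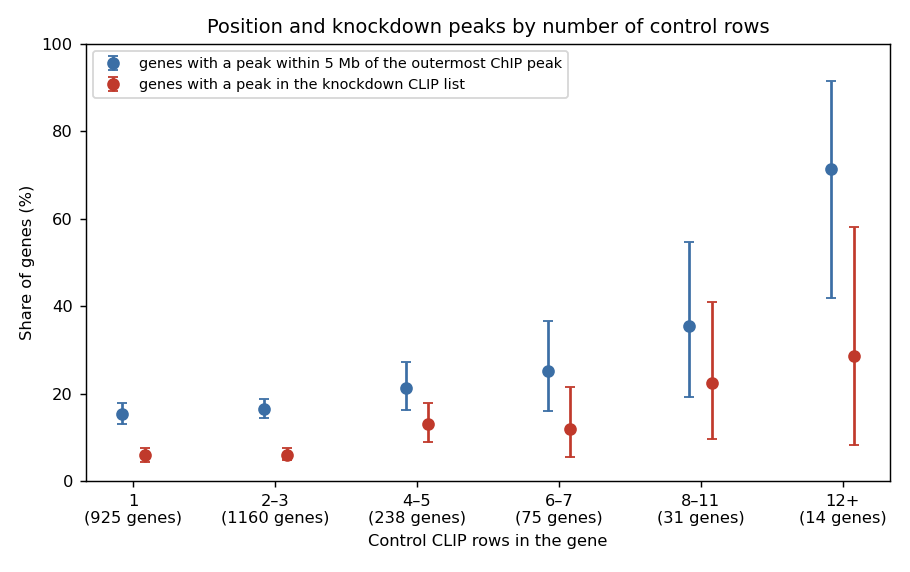
Points give the share (%) of protein-coding genes near a chromosome end (blue) and with a knockdown CLIP peak (red), by the number of control CLIP peaks in the gene, with exact 95% intervals as bars. The blue share is 15.5% for genes with 1 peak and 71.4% for the 14 genes with 12 or more.

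The peaks lay near chromosome ends more often than those of other genes. Within 5 Mb of the outermost ChIP peak of the chromosome, taken as its end, lay 287 of the 568 peaks (50.5%, 46.3 to 54.7), against 17.8% of the comparison peaks and 21.3% of both together. By gene, where genes and not peaks are counted, it was 21 of 45 (46.7%, 31.7 to 62.1) against 405 of 2398 (16.9%), a difference of 29.8 points (15.96 to 44.1). These intervals cover counting error only. Among the 45 genes only TRAPPC9 had peaks on either side of the 5 Mb limit, with 7 of its 26 within it. Peaks of the same gene are therefore not independent in position. Neighbouring genes such as CBFA2T3 and ANKRD11, or PLEC and EPPK1, are not independent either. Within 2 Mb the shares of peaks were 30.6% and 9.37%, and within 10 Mb 57.9% and 26.3%. The outermost ChIP peak can lie far from the physical end of a chromosome. KLHL22 on chromosome 22, counted at 4.68 Mb with 8 of the 287 peaks, has its first peak at base 20461266. Over the 45 genes the median distance from the end was 8.43 Mb, and the largest was 68.4 Mb, in ADGRB3. AHNAK at 62.3 Mb, MFGE8 at 13.1 Mb and ZNF646 at 31.0 Mb were among the genes farther in.

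Some of the genes were neighbours. In 5 places, genes lay within 2 Mb of the next, 11 genes in all. CBFA2T3 and ANKRD11, 308 kb apart on chromosome 16, held 57 peaks together. PLEC and EPPK1, 38.9 kb apart, held 38, C7orf50 and MAD1L1 on chromosome 7 held 36, and GAK, CTBP1 and MAEA on chromosome 4 held 30. KAZN and SPEN on chromosome 1, 858 kb apart, held 16.

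Genes on either side of the limit of 8 peaks had summed reads in overlapping ranges. The 14 genes with exactly 8 control peaks had a median of 78 summed reads, from 67 to 95, led by IRS2 and MACF1 with 95 each and CHST11, a chondroitin sulfotransferase gene, with 92. The 27 genes with exactly 7 had a median of 66, from 53 to 298, led by CCDC200 with 298, CDK6, a cell cycle kinase gene, with 137 and TXNRD2, a mitochondrial thioredoxin reductase gene, with 106. UNC13A, just outside the limit, had its 7 peaks of 9 reads within 143 bp.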

How the data were processed

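THP-1 cells with sh-control or sh-QKI5 were profiled by QKI5 CLIP and by H3K4me3 and Pol II ChIP, and the deposited data are 6 peak lists in which both replicates are combined, as the design text says. HOMER and GRCh38.p5 appear in the submitters' processing notes with no role. Aligner, peak caller and any use of the inputs: not given in the sources used here. The deposited ChIP score is 1 at every peak, so positions alone were used. The CLIP lists have no header: the authors' columns were taken from their values as −log10 p, log2 enrichment, and a read number in the peak name. The −log10 p took 1 value, 15.7, at 205 control peaks and so ranks them poorly.

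Identifiers were matched to RefSeq (GRCh38.p14) by symbol, 3132 of 3366 (93.0%) in the control list, and none of that gene table's coordinates is printed. Peaks overlapped where they shared 1 bp or more, and 2 CLIP peaks only on 1 strand. Shares carry exact (Clopper-Pearson) 95% intervals and differences Newcombe intervals, for counting error only. There is no test between conditions, since each list is 1 pooled set. Starts came from the RefSeq promoter table, whose patch release leaves main-chromosome coordinates as in the files' build. Exons and introns were not analysed here. The members and gene lists were chosen with earlier results of these data known. Named are the 20 genes with most peaks, those sharing a peak with knockdown, those of the 10 peaks with most reads, list members, and the extremes by Pol II share and at the limit of 8. Scripts used Python 3.11.15, pandas 2.3.3, scipy 1.17.1 and matplotlib 3.10.9, and the overlap and interval steps were tested on simulated data.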

Additional observations from a re-analysis of the deposited data

How the results depend on the processing

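Of 101 alternative values, 68 stayed within the main value's interval, or within 1.5 times a count, with the same direction, 27 moved and 6 changed sign. All 6 concern the difference in peaks shared with knockdown CLIP, 0.15 points: it was −0.21 with 50% overlap of each peak, −0.27 with genes of 6 or more peaks, −0.21 with no peak removed for H3K4me3, −1.02 for peaks of 10 or more reads, −3.39 for peaks with a −log10 p of at least 10, and −0.36 without MFGE8. That last setting, and those without ZNF646 or AHNAK, were chosen after seeing the data.

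The number of peaks was 996 with a limit of 6, 343 for peaks of 10 or more reads, 108 for a −log10 p of at least 10, and 337 in 17 genes when peaks within 50 bp were merged before counting. In the same order the median reads were 9, 13, 22 and 12 and the median log2 enrichment 5.38, 4.36, 3.97 and 4.70. The share near a chromosome end was 54.8% with a limit of 10, 38.9% with 6, 42.6% for a −log10 p of at least 10, 66.5% after merging, 57.9% within 10 Mb and 30.6% within 2 Mb. The Pol II share was 10.04% when a peak within 1 kb counted, against 11.6% in the comparison, and 8.88%, against 13.5%, with no peak removed for H3K4me3. Its difference from the comparison, −1.88 points, was −4.63 in that last setting and −4.72 for peaks of 10 or more reads, and both intervals exclude 0. Genes with a knockdown CLIP peak made up 40.0% of the 5 genes left at a −log10 p of at least 10. The cause of these shifts was not tested, beyond the narrower or wider sets that the settings make.

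No paired analysis was possible because every list pools both replicates, and for the same reason there was no replicate to leave out. The depth of the samples is unknown.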

Other observations

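The densely bound genes were mostly on the minus strand, a pattern noticed in the values. The 12 genes with most peaks were all on it when a tie at 12 peaks was broken by summed reads. That tie was between MAD1L1 and AGAP1, and AGAP1 is on the plus strand. Of the 14 genes with 12 or more control peaks, 12 (85.7%) were on the minus strand, and of the 31 with 8 to 11, 17 (54.8%). Over all 45 genes the number was 29 (64.4%), against 50.9% of the comparison genes. By peaks it was 75.9% against 54.3%. Peaks on the minus strand were also divided more often: 68.3% of minus-strand and 50.7% of plus-strand peaks of the whole control list adjoined another peak of their gene, and 1.56 and 1.37 peaks made up a merged site. After merging, 259 of the 356 sites of the densely bound genes were on the minus strand, beside 1645 of 3253 in the comparison. With 8 or more merged sites as the rule, 13 of 17 genes were. What part the division of peaks has in the pattern was not tested.

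Genes with a single peak off H3K4me3 and no other in the list were on the minus strand in 39.7% of 925 cases, and those with 2 or 3 peaks in 57.9% of 1160.

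The −log10 p of 50 of the 568 peaks was the same value, 15.7, and 7 were above it, although the reads of those 50 differed. The peak of 41 reads in AHNAK had that value, while one of 39 reads in PLEC had 53.2.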
